A study of Mus musculus with 4 samples.

Results

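The Gimap genes encode the GTPases of the immunity-associated protein family, a group of small GTP-binding proteins made mainly in lymphocytes. They were chosen by symbol: every gene of the expression table whose name starts with Gimap, which gave 9 of 16673 genes. These are Gimap8, Gimap9, Gimap4, Gimap6, Gimap7, Gimap1os, Gimap1, Gimap5 and Gimap3, in their order along chromosome 6. The family was selected from earlier results in which Gimap4 differed between the groups, so every difference between the groups in Gimap genes is given below as a description. Where a threshold of the fit over all genes is named beside them, it is no independent support.

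GIMAP proteins bind GTP through a domain shared by the whole family and many of them sit on the membranes of organelles such as lysosomes, mitochondria and the endoplasmic reticulum. They are known for their part in the survival of lymphocytes. Loss of Gimap5 leaves rats and mice with few peripheral T cells, and in mice Gimap5 also acts in blood stem cells. In marrow, the Lin– (lineage-negative) fraction is enriched in stem and progenitor cells by depleting mature blood cells, so few mature T and B cells are meant to be in it.

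RNA was sequenced from the Lin– cells of 4 mice aged 2 months, 2 mice per genotype and 1 library each. The cKO group (n = 2) had the genotype Tie2+/cre; Tet3F/F, floxed Tet3 alleles with Cre driven by Tie2, a gene of endothelial cells and early blood cells. The control group (n = 2) had the genotype Tet3F/F, the same floxed alleles without Cre. TET3 oxidises methylated cytosine in DNA, and the comparison addresses its role in gene expression in these cells. Cre was present in 1 group only, so the targeting of Tet3 and the presence of Cre cannot be told apart.

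Values are normalized counts, the reads of a gene divided by a size factor for its library. The libraries held 28845037 and 30020188 reads in cKO and 39199593 and 46673855 in control. Tet3 itself was at 6400 and 5084 in the libraries labelled cKO, against 5056 and 6593 in those labelled control, so it was not lower where it was targeted. Such a count also takes in reads from exons that Cre leaves in place, so it checks neither genotype nor label. Xist stood at 87442 and 48951 in cKO and at 5.54 and 9.57 in control, while the Y genes Ddx3y, Eif2s3y, Kdm5d and Uty had 0 reads in both cKO libraries and 769 to 4313 normalized counts in the control libraries. The groups thus differed in sex, and sex and genotype cannot be told apart in any comparison here. The progenitor genes Kit (14051 and 12478 in cKO, 10915 and 11537 in control) and Cd34 (13170 and 13116 in cKO, 11733 and 8599 in control) were abundant in all libraries. Control replicate 2 stood apart: protein genes of the mitochondrial genome took 8.16% of its reads, against 1.26% and 0.989% in cKO replicates 1 and 2 and 1.09% in control replicate 1.

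All 8 coding members share a GTP-binding site, and part of it is shown here. Its first part is the P-loop, in which a glycine is followed by any 4 residues, a glycine, a lysine, and a serine or threonine. The longest annotated coding sequence of each member (GENCODE M21, GRCm38) was searched for this pattern. Capitals mark the 24 bases that encode the P-loop, which lie in coding exons at the positions given, and the 12 bases on each side are in lower case, 5′ to 3′ on the coding strand.
Gimap8 match 1, chr6:48650256-48650279, plus strand: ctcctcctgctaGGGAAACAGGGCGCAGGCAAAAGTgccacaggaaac
Gimap8 match 2, chr6:48656119-48656142, plus strand: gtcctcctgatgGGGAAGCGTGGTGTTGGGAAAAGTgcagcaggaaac
Gimap8 match 3, chr6:48658746-48658769, plus strand: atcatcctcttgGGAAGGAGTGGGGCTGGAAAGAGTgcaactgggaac
Gimap9, chr6:48677523-48677546, plus strand: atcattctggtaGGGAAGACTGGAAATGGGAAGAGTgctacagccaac
Gimap4, chr6:48690421-48690444, plus strand: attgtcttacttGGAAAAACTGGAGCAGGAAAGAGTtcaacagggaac
Gimap6, chr6:48702750-48702773, minus strand: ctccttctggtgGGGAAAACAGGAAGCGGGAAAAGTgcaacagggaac
Gimap7, chr6:48723524-48723547, plus strand: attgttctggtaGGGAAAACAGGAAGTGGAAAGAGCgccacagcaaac
Gimap1, chr6:48742552-48742575, plus strand: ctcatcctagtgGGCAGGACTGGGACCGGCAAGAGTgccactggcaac
Gimap5, chr6:48752594-48752617, plus strand: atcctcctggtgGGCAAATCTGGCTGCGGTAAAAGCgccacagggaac
Gimap3, chr6:48765887-48765910, minus strand: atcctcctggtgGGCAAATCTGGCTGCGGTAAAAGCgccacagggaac

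Gimap8 held 3 matches in a coding sequence of 2064 bases, and the other 7 coding members held 1 match each in 873 to 984 bases. The P-loops of Gimap3 and Gimap5 were identical over all 48 bases shown. Their whole coding sequences were 87.9% identical over the aligned bases, the highest of 28 pairs, and the next pair, Gimap9 and Gimap7, stood at 64.9%. Even so, 7.52% of all windows of 50 bases in Gimap3 transcripts occurred unchanged in Gimap5, and 4.53% of those in Gimap5 occurred in Gimap3. Reads from those windows could have been split or dropped in counting, which makes the values of the 2 genes slightly less certain. Gimap1 and Gimap1os, on opposite strands, shared more: 32.4% and 32.6% of their windows, with either strand searched.

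Gimap4, a regulator of T cell death that is also known as Ian1, had 2370 and 1615 normalized counts in cKO and 416 and 405 in control. Both cKO libraries lay far above both control libraries, which were nearly equal. The ratio of the group means was 4.85, and the log2 fold change was 2.25 (SE 0.25), the mean of cKO less that of control in log2(normalized count + 1). With each library left out in turn it ran from 1.97 to 2.53, and it was 2.23 without control replicate 2. In bulk RNA, fewer cells of a type and less RNA per cell cannot be told apart, for this gene and for those that follow.

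Gimap3, whose product binds proteins of the BCL2 family in mouse T cells, had 3106 and 2585 normalized counts in cKO and 496 and 1133 in control. The groups did not overlap, but the control libraries were 1.19 apart on the log2 scale, the widest gap between control libraries of any member. Its log2 fold change was 1.92 (SE 0.37). Leaving out control replicate 1 gave 1.32 and leaving out control replicate 2 gave 2.51, so that the size of the difference depends on which control library is used.

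Gimap5, the closest relative of Gimap3 in sequence, differed much less. Its values were 508 and 285 normalized counts in cKO and 213 and 341 in control. Control replicate 2 lay above cKO replicate 2, so the groups overlapped. The log2 fold change was 0.50 (SE 0.39), with 0.08 without cKO replicate 1 and 0.16 without control replicate 1. The ratio of Gimap3 to Gimap5 within a library, which does not depend on the scaling of libraries, was 6.12 and 9.07 in cKO and 2.32 and 3.33 in control.

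Gimap7, whose human counterpart hydrolyses GTP as a dimer, had 313 and 246 normalized counts in cKO and 79.4 and 107 in control. The groups did not overlap, and the log2 fold change was 1.58 (SE 0.38). Its relative Gimap9 had 741 and 748 in cKO and 451 and 601 in control. The groups did not overlap there either, but the log2 fold change was smaller, at 0.52 (SE 0.25), or 0.31 without control replicate 1.

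Gimap6, which binds an adaptor protein of autophagy, had 2376 and 1846 normalized counts in cKO and 1081 and 1464 in control. Gimap8, the member with the 3 GTP-binding modules, had 1118 and 802 in cKO and 354 and 641 in control. Neither gene overlapped between the groups, and the log2 fold changes were 0.73 (SE 0.24) for Gimap6 and 0.99 (SE 0.34) for Gimap8. With control replicate 1 left out Gimap8 was at 0.56, and with control replicate 2 left out at 1.42.

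Gimap1, which mature T and B cells need to persist in mice, had 1110 and 1118 normalized counts in cKO and 685 and 1137 in control. The cKO libraries were nearly equal, and control replicate 2 lay just above both. The log2 fold change was 0.34 (SE 0.28), the smallest of the family. Leaving out control replicate 1 gave -0.03, and leaving out control replicate 2 gave 0.70, so no direction holds for this gene.

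Gimap1os, a noncoding transcript read from the strand opposite Gimap1, was the lowest member, with 123 and 88.5 normalized counts in cKO and 25.9 and 54.2 in control. The groups did not overlap, and the log2 fold change was 1.45 (SE 0.57), or 0.93 without control replicate 1. It shares 1107 exon bases with Gimap1, which is 35.7% of its own exon length in GENCODE M21. The sources used here do not say whether counting used strand, so reads of the 2 genes in the shared part cannot be told apart. Gimap1, Gimap5 and Gimap7 also share 198, 153 and 81 exon bases with the read-through gene Gm28053, and reads there could have been left out of any of them.

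**Figure D1:**
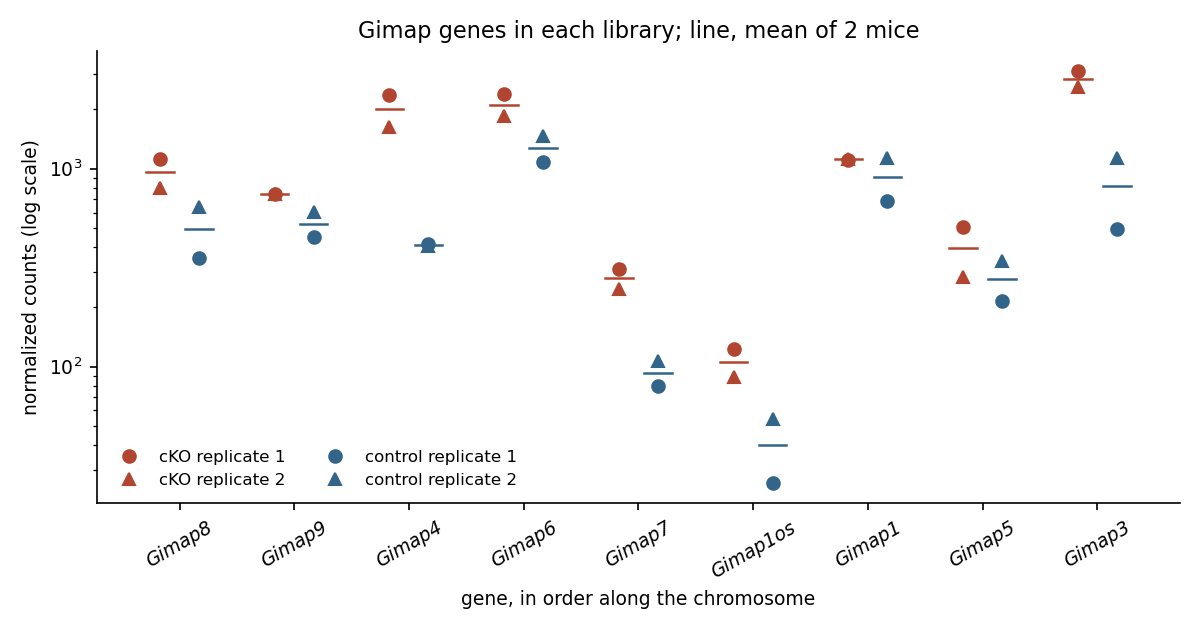
Normalized counts (log scale) of the 9 Gimap genes in each of the 4 libraries, cKO left of control, with a line at the mean of 2 mice. Both cKO points lie above both control points in 7 genes, and the groups overlap in Gimap1 and Gimap5.

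All 9 genes passed the filter on low values (a mean of at least 10 normalized counts), as did 16598 genes in all. In all 9 the log2 fold change was above 0. Their median was 0.99, while that over all genes tested was 0.01. In 7 of the 9, both cKO libraries lay above both control libraries, which held for 19.2% of all genes tested. Gimap4 alone was past the threshold of 0.05 of limma with Benjamini-Hochberg adjustment over all genes, among the 0.0301% of genes called higher, and no Gimap gene was among the 0.0422% called lower. DESeq2 called 3 of the 9 members, among 107 of 16673 genes called, and edgeR called 1, among 12 of 16473. Because the family was taken up for this contrast, nothing is read from these counts. Without control replicate 2 the median was 1.42, and without control replicate 1 it was 0.56. The members also shared a pattern within groups: 8 were higher in control replicate 2 than in control replicate 1, Gimap4 being the exception, against 50.8% of all genes tested. Likewise 7 were higher in cKO replicate 1 than in cKO replicate 2, against 49.4% of all genes tested, and the other two, Gimap9 and Gimap1, were almost equal there.

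The sum of all 9 genes was 11765 and 9333 normalized counts in cKO and 3802 and 5882 in control. In RPM, reads scaled to the total of the library, this is 349 and 271 in cKO (Wilson 95% intervals 343 to 356 and 265 to 277) and 105 and 158 in control (102 to 108 and 154 to 162). These intervals cover counting error only, since PCR copies were not told apart. The mean of the sums was 10549 ± 1719 in cKO and 4842 ± 1471 in control (SD, n = 2 each), a ratio of 2.18, and the difference of the mean log2 sums was 1.15. Without Gimap4 and Gimap3 the 7 other genes had sums of 6289 and 5133 in cKO and 2890 and 4344 in control, a ratio of 1.58. The groups did not overlap in either sum. Gimap4 and Gimap3 therefore carry much of the difference, but not all of it.

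The make-up of the Gimap reads differed along with their amount. Gimap4 was 20.1% and 17.3% of the Gimap reads in cKO (Wilson 95% intervals 19.4 to 20.9 and 16.5 to 18.1) and 10.95% and 6.89% in control (10.03 to 11.9 and 6.33 to 7.49). Gimap3 was 26.4% and 27.7% in cKO and 13.0% and 19.3% in control. Gimap6 and Gimap1 took smaller shares in cKO. Gimap6 was 20.2% and 19.8% in cKO and 28.4% and 24.9% in control, and Gimap1 was 9.44% and 11.98% in cKO and 18.02% and 19.3% in control. The ratio of Gimap4 to Gimap1 was 2.13 and 1.45 in cKO and 0.608 and 0.356 in control. Each of these shares and this ratio kept the groups apart. The shares of Gimap9, Gimap5, Gimap7 and Gimap1os did so too, while that of Gimap8 overlapped. Shares add up to a whole, so some must fall where others rise. The ratio pairs the members with the largest and the smallest log2 fold change, so nothing is read from its separation.

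**Figure D2:**
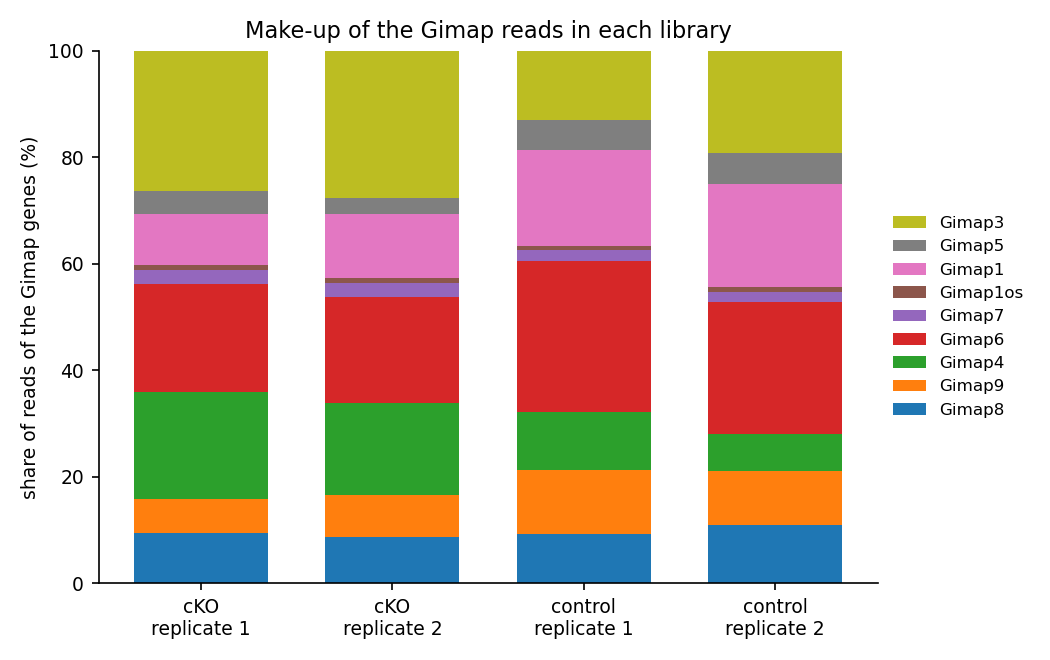
Share (%) of the reads of all 9 Gimap genes that each gene took in each of the 4 libraries, cKO left of control. Gimap3 and Gimap4 take more of the bar in both cKO libraries, and Gimap1 and Gimap6 take more in both control libraries.

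Levels of different genes can be set side by side only per length, here as normalized counts per kilobase of exon in GENCODE M21. In cKO the order was Gimap3 (1104), Gimap4 (1085), Gimap6 (604), Gimap9 (453), Gimap1 (363), Gimap8 (259), Gimap7 (120), Gimap5 (95.5) and Gimap1os (34.05), as means per kilobase of 2 libraries. The ranges of Gimap3 and Gimap4 overlapped there, as did those of Gimap7 and Gimap5, and the other neighbours in the order were apart. In control the order was Gimap6 (364), Gimap9 (320.4), Gimap3 (316), Gimap1 (296), Gimap4 (224), Gimap8 (134), Gimap5 (66.7), Gimap7 (40.1) and Gimap1os (12.9), on the same scale. Among the first 5 of these each overlapped the next in its range over the 2 libraries, while Gimap6 and Gimap9 both lay above Gimap4 throughout. Gimap4 thus stood at place 2 in cKO and at place 5 in control.

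The Gimap genes form 1 block on chromosome 6, and the log2 fold changes of the genes on either side were lower than those of most members. The 4 nearest genes tested on each side were Gm5111, Repin1, Zfp775 and AI854703 before Gimap8, and Tmem176b, Tmem176a, Gm7932 and Gpnmb beyond Gimap3. Their log2 fold changes ran from -0.95 to 0.35, with a median of -0.23, and both cKO libraries lay above both control libraries in 2 of the 8. Those 2 were Tmem176b (4895 and 4962 normalized counts in cKO, 4266 and 3843 in control) and its neighbour Tmem176a (2599 and 2264 in cKO, 2136 and 1689 in control). The log2 fold changes followed no order along the block. Gimap4 lies between Gimap9 (0.52) and Gimap6 (0.73), and Gimap3, at the far end, lies next along the family to Gimap5 (0.50). Of 3 other genes inside the block, Gm44226 had a log2 fold change of 1.12 (SE 0.61), Gm28053 0.61 (SE 0.65) and 4833403J16Rik 0.14 (SE 0.65), all at under 70 normalized counts.

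**Figure D3:**
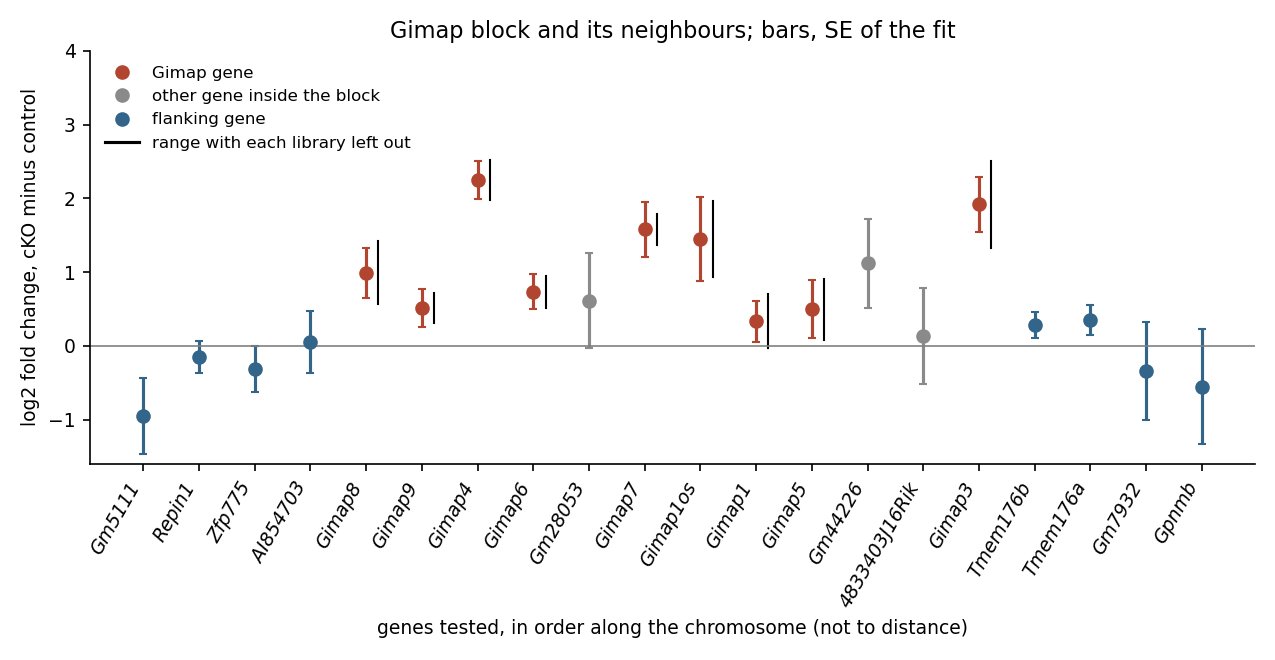
Log2 fold change (cKO minus control) of the Gimap genes, the 3 other genes inside the block and 4 genes on each side, in chromosome order, with the SE of the fit as bars and a line for the range with each library left out. Gimap4 (2.25) and Gimap3 (1.92) are highest, and the flanking genes lie between -0.95 and 0.35.

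Promoters of 8 of the 9 genes are given by RefSeq (GRCm38.p6), as 250 bases before and 50 after a transcript start. Gimap8 has 2 starts, and Gimap1os has no entry. A pair is shown, the promoter of the member with the largest log2 fold change, Gimap4 (chr6:48684328-48684627, plus strand), and that of the smallest, Gimap1 (chr6:48738797-48739096, plus strand). The letters searched on both strands were AGATAA (the motif of GATA factors), TGTGGT (that of RUNX factors), CTTTGA (that of TCF/LEF factors), AGGAAG (that of ETS factors) and TATAAA (that of the TATA box), and capitals mark every match.
Gimap4: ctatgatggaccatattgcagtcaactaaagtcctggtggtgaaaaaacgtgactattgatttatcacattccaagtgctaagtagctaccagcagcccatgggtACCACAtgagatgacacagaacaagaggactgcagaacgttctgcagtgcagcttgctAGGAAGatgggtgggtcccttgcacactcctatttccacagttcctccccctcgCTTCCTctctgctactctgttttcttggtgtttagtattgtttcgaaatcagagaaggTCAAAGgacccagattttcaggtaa
Gimap1: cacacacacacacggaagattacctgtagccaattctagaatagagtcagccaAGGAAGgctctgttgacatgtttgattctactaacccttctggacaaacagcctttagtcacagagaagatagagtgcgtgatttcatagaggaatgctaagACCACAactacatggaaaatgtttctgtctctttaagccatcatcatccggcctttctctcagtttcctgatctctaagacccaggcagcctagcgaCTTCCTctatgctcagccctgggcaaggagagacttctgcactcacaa

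Both promoters held TGTGGT 1 time and AGGAAG 2 times, and Gimap4 also held CTTTGA 1 time, just past its start. No match overlapped another in the 2 sequences shown. Over the 9 promoters of the family, AGGAAG was in 7, against 35.4% of all 32851 promoters of the same length, and TGTGGT was in 3, against 16.8%. CTTTGA was in 2 (16.0% of all), TATAAA in 1 (13.6% of all) and AGATAA in 0 (11.2% of all). A match is only these letters in this window. TET enzymes act at methylated CG pairs, and the Gimap promoters held 2 to 8 of these in 300 bases, with a median of 4, against a median of 7 over all promoters. Gimap9 had the 8. Gimap4 and Gimap1, whose log2 fold changes were the largest and the smallest, each had 4. DNA methylation was not analysed here.

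Markers of T cells moved with the Gimap genes. The T cell list of 16 genes, among them the CD3 chains and the constant segments of the T cell receptor, summed to 8739 and 6647 normalized counts in cKO and 2604 and 4609 in control. The log2 fold change was above 0 in all 16, the median was 1.67, and in 14 both cKO libraries lay above both control libraries, against 19.2% of all genes tested. No gene of the list had 0 reads in any library. None passed limma with Benjamini-Hochberg adjustment over all genes, while 11 had an unadjusted p under 0.05, against 6.10% of all genes tested, edgeR called 0 of them and DESeq2 called 5. Cd3e, a defining chain of the T cell receptor complex that was picked with its values known, had 459.9 and 292 normalized counts in cKO and 67.4 and 177 in control. Lck, the kinase that starts T cell receptor signalling, had 926 and 836 in cKO and 503 and 781 in control. Lat (879 and 803 in cKO, 546 and 1050 in control) and Tcf7 (598 and 519 in cKO, 263 and 429.9 in control) were the other most abundant members.

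The Gimap sum divided by the T cell sum of the same library was 1.35 and 1.40 in cKO and 1.46 and 1.28 in control, so the groups overlapped, although the Gimap sum itself spanned 3802 to 11765 normalized counts. Control replicate 2 had the lowest of these ratios and control replicate 1 the highest. Without Lat, the most abundant gene of the list, the ratio was 1.497 and 1.597 in cKO and 1.85 and 1.65 in control, so that the groups no longer overlapped. The overlap therefore rests on 1 gene. Of the 9 members, 4 were higher relative to the T cell sum (Lat included) in both cKO libraries than in both control libraries, and 5 were lower in both. The share of all genes apart on this ratio was not taken, so nothing is read from these counts. The T cell sum was itself higher in both cKO libraries, so a gene with a small log2 fold change is lower in cKO on this scale. Gimap4 was 0.271 and 0.243 of the T cell sum in cKO and 0.160 and 0.0879 in control, and Gimap3 was 0.355 and 0.389 in cKO and 0.190 and 0.246 in control. Gimap7 and Gimap1os were the other two that were higher. Gimap1 was lower, at 0.127 and 0.168 in cKO and 0.263 and 0.247 in control, as was Gimap5, at 0.0581 and 0.0429 in cKO and 0.0819 and 0.0739 in control. Gimap6 was at 0.272 and 0.278 in cKO and 0.415 and 0.318 in control, and Gimap9 at 0.0848 and 0.113 in cKO and 0.173 and 0.130 in control. Gimap8, the last of the 5, varied least between the groups, at 0.128 and 0.121 in cKO and 0.136 and 0.139 in control. The part of T cells in the Gimap differences was not tested.

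Further lists of lymphocyte genes were set beside the Gimap sum, and their most abundant genes did not all move with it. Over all genes tested, 50.8% had a log2 fold change above 0. The list of 14 genes of natural killer (NK) and innate lymphoid cells summed to 13254 and 12406 normalized counts in cKO and 10603 and 7859 in control, with 12 of 14 genes above 0, a median of 1.31 and 0 genes at 0 reads. Its most abundant genes were Nkg7 (4975 and 6616 in cKO, 8474 and 4671 in control), the cytokine receptor chain Il2rb (3125 and 2271 in cKO, 698 and 1099 in control) and the chemokine receptor Cxcr6 (1218 and 1010 in cKO, 251 and 339.8 in control). The Gimap sum divided by this list was 0.888 and 0.752 in cKO and 0.359 and 0.749 in control. Nkg7 carried most of the list in control replicate 1, and without it the ratio was 1.42 and 1.61 in cKO and 1.79 and 1.85 in control, lower in both cKO libraries. The B cell list, with 12 of 13 genes in the table, summed to 3618 and 2394 in cKO and 1976 and 1980 in control. Its most abundant genes were Cd79b (709.8 and 885 in cKO, 925 and 727 in control), Blnk (667 and 350.4 in cKO, 174 and 191 in control) and Cd72 (462 and 453 in cKO, 394 and 373 in control). Of its genes 11 were above 0, the median was 0.75, and 1, the surrogate light chain gene Igll1, had 0 reads in control replicate 2. The Gimap sum divided by the B cell sum was 3.25 and 3.90 in cKO and 1.92 and 2.97 in control. Without Cd79b it was 4.05 and 6.18 in cKO and 3.62 and 4.69 in control, so that the groups overlapped.

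The lists of other cell types, plasma cells among them, were read in the same way. The stem and progenitor list summed to 45475 and 42939 normalized counts in cKO and 35824 and 38872 in control (median log2 fold change 0.30, 9 of 12 above 0). The endothelial list, which bears on the cells that Tie2 marks, summed to 9718 and 9062 in cKO and 7533 and 8482 in control (median 0.42, 6 of 9 above 0). Dendritic cell genes had a median of 0.13, plasma cell genes 0.88, neutrophil and monocyte precursor genes 0.04, and erythroid genes -2.13. The plasma cell sum was 81655 and 93080 in cKO and 62058 and 28125 in control. Much of it was Igkc, at 49421 and 57230 in cKO and 31050 and 9510 in control, and the sum was not taken without this gene. The erythroid sum was 37659 and 11663 in cKO and 29472 and 81434 in control, so control replicate 2 was highest there. None of the 101 marker genes tested passed limma over all genes, while 36 had an unadjusted p under 0.05, against 6.10% of all genes tested, edgeR called 0 and DESeq2 called 10. In this Lin– fraction the part of any of these cell types in the Gimap values was not tested.

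**Figure D4:**
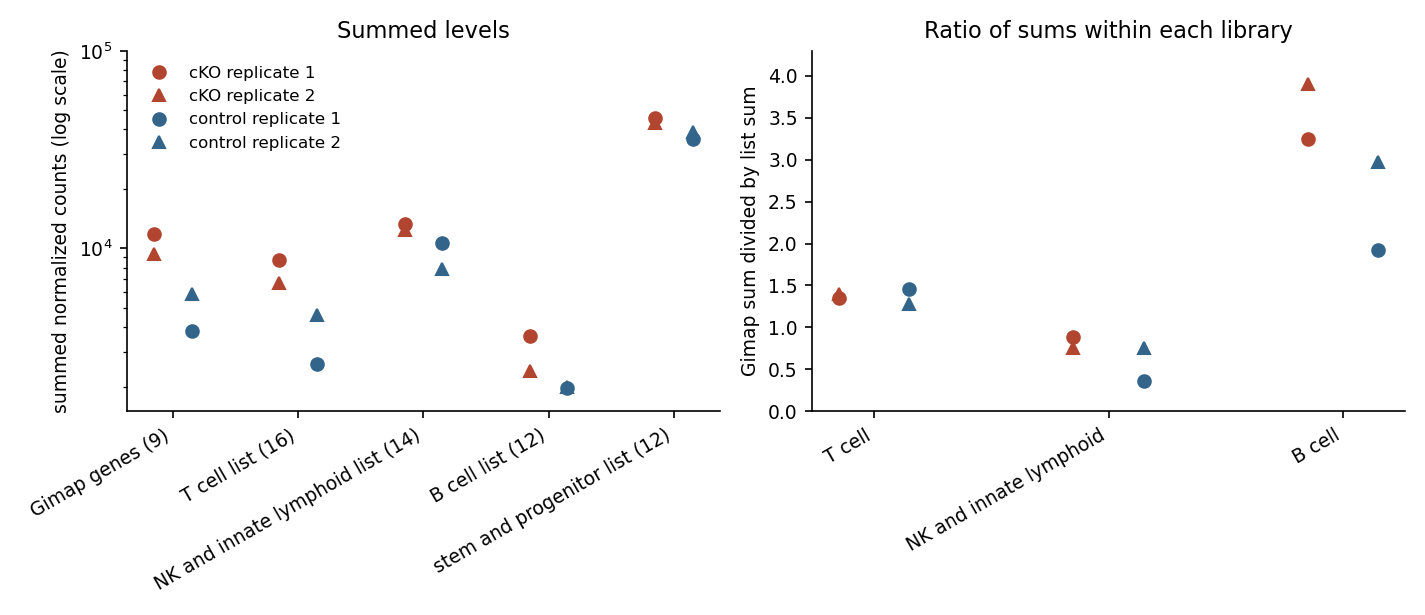
Left, summed normalized counts (log scale) of the 9 Gimap genes and of 4 marker lists in each library, cKO left of control. Right, the Gimap sum divided by the sum of each lymphocyte list, where the T cell ratio lies between 1.28 and 1.46 in all 4 libraries.

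A list of 27 genes around GIMAP function was followed beside the family: the BCL2 family, autophagy adaptors, other partners and signalling from the interleukin 7 receptor. Of the 27, 15 were above 0 and 12 below, with a median of 0.02. Over all genes tested, 50.8% were above 0 and the median was 0.01. Both cKO libraries lay above both control libraries in 5, and below both in 5, against 19.2% and 19.5% of all genes tested. With limma and Benjamini-Hochberg adjustment over all genes 0 passed, edgeR and DESeq2 called 0, and 3 had an unadjusted p under 0.05, against 6.10% of all genes tested. The survival gene Bcl2 had 4896 and 4274 normalized counts in cKO and 3009 and 3424 in control (log2 fold change 0.51, SE 0.19). Bax, its death-promoting relative, had 1763 and 2264 in cKO and 2782 and 3786 in control (-0.70, SE 0.23). Klf2, a transcription factor that keeps T cells quiescent, had 365 and 499 in cKO and 637 and 843 in control (-0.78, SE 0.28). Il7r, the receptor chain that lymphocytes need for survival, had 1390 and 538 in cKO and 480 and 494.5 in control (0.83, SE 0.42). There cKO replicate 2 lay close to the control libraries. Other genes of the list went both ways. Jak1 had 8705 and 7183 in cKO and 6799 and 5651 in control (0.35, SE 0.20). Bcl2l1 had 742 and 785 in cKO and 896 and 1075 in control (-0.36, SE 0.22). Jak3 was at -0.24 (SE 0.18), and Mcl1 and Bcl2l11 were both at -0.02 (SE 0.18 and 0.20). The genes named so far from this list and Gabarapl2, below, were picked for naming with their values known. Calm3 and Lamp1, among the most abundant genes of the list, had log2 fold changes of 0.07 (SE 0.23) and -0.16 (SE 0.24). Last, Gabarapl2, which encodes an autophagy protein that GIMAP6 binds, had 1088 and 1079 in cKO and 996 and 928 in control.

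Profiles most like that of Gimap4 were sought among 10894 other genes with a mean of at least 100 normalized counts, antigen receptor segments and unnamed gene models left out. Likeness was the root mean square difference of log2 values over the 4 libraries, each gene centred on its own mean. Among the 8 nearest were Art2b (0.0909), Klrb1c (0.0940), Mmp9 (0.103), Cxcr6 (0.255), Sh2d2a (0.258), Selp (0.2599) and Ikzf3 (0.281). Art2b, which encodes an ADP-ribosyltransferase of T cells, had 350.2 and 278 normalized counts in cKO and 62.8 and 67.0 in control, and the NK receptor gene Klrb1c had 625 and 454 in cKO and 98.8 and 112 in control. Mmp9, a matrix protease, had 488 and 353 in cKO and 77.6 and 73.4 in control. In all 3, cKO replicate 1 was highest and the control libraries were close together, as in Gimap4. This follows from how they were chosen and is no further finding. The 8 genes nearest to the sum of the family were Fgd5 (0.0808), Thy1 (0.0846), Jpx (0.0940), Dst (0.120), Cd22 (0.125), Zap70 (0.135), Rpgrip1 (0.137) and Khdrbs3 (0.144). Thy1, a surface protein of T cells and stem cells, had 1795 and 1233 in cKO and 529 and 778 in control, and Zap70, a kinase of the T cell receptor, had 475 and 387 in cKO and 124 and 214 in control. Jpx lies on the X chromosome. With 4 libraries, and with the genotype, Cre and sex moving together, such likeness is a description of these libraries.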

How the data were processed

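RNA-seq libraries of Lin– cells from 4 mice were analysed, 2 cKO and 2 control. The values are a signal deposited by the authors: gene read counts divided by 1 size factor per library. The tools named in the submitters' processing notes are DESeq2, featureCounts, SAMtools, STAR (2.7.9a) and Trim Galore (0.6.7), with build mm39. The sources used here do not give counting settings, strand, annotation or filter. Columns headed WT were taken as the control samples. In each library 100% of values were whole multiples of 1 read (within 0.1 read), and edgeR on the reads so recovered called 12 genes.

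Log2(normalized count + 1) of every gene whose mean reached 10 was fitted with limma 3.58.1 in R 4.3.3, using a mean-variance trend, and its two-sided p-values were adjusted by Benjamini-Hochberg. This scale understates the change of low genes. Residual degrees of freedom were 2, and an exact permutation of 2 against 2 cannot go below 0.333. Replicates differed by more than counting noise, with chi-square divided by degrees of freedom of 37.7 in cKO and 293 in control. P-values measure the spread between these mice only, in part that of the gene and in part that shared across genes (prior degrees of freedom 5.48). The members, lists and tests were chosen with earlier results of these data known. Named genes were the members, the checks, the 3 most abundant genes of each list described singly and any called, 4 flanking genes a side, and the 8 nearest profiles. Of these, 2 genes are not reported here. Alternatives were pseudocounts of 0.5 and 10, no filter, a mean of at least 50, TMM, quantile normalization, no trend, robust fits, a replicate block, each library left out, no X and Y genes, edgeR 4.0.16 and DESeq2 1.42.0. Ratios to lymphocyte lists were also taken without each list's most abundant gene, an alternative chosen after seeing the data. The fits were tested on simulated data. Exon lengths, gene order and coding sequences came from GENCODE M21 (GRCm38) and promoters from RefSeq (GRCm38.p6), by symbol. The reads' build differs from both.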

Additional observations from a re-analysis of the deposited data

How the results depend on the processing

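Under 16 alternatives only Gimap1 among the 9 genes turned its direction, lying between -0.03 (-0.0289, control replicate 1 left out) and 0.70 over the fits that leave out 1 library. Filters, trend, robust and block fits leave a log2 fold change as it is by construction, and leaving out 1 of 2 libraries moves a mean by less than 1 SD, so this says little about stability. The median of the family was lowest, 0.56, with control replicate 1 left out and highest, 1.42, with control replicate 2 left out. The sum of the family kept its direction in every alternative run for it; edgeR and DESeq2 gave no value for a sum. Gimap4 was past the threshold of limma, edgeR or DESeq2, adjusted over all genes, in 9 of the 16 alternatives. It was not past it with a pseudocount of 0.5, a mean of at least 50, quantile normalization, no trend, the replicate block, without cKO replicate 1 or without X and Y genes.

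Over all genes, the 12 calls became 2 without X and Y genes and 107 with DESeq2, and lay between 18 and 392 when 1 library was left out. The 392 came without control replicate 1, where control replicate 2 was the only control and was assumed to vary like the other group. Among the marker genes 0 calls became 10 with DESeq2 and lay between 0 and 13 when 1 library was left out. The partner list had 0 calls in every alternative run. With the replicate block there were 8 calls in place of 12. The replicate numbers are not stated to pair the mice, and same-numbered libraries did not deviate together (r = -0.07 over genes), so the block is not read as a better design. The mean log2 ratio of the Gimap sum to a lymphocyte list, cKO minus control, was also taken with the list's most abundant gene left out. This choice was made after seeing the data. The ratio turned to -0.18 for T cells, against 0.01, and to -0.26 for NK and innate lymphoid cells, against 0.66. For B cells it kept its direction, at 0.28 against 0.57. The cause of the other changes was not tested. With 2 mice a group, Gimap4 alone among the members was past the threshold of the main limma fit, and it was not past it in every alternative. In that main fit the other members were not past the threshold once adjusted over all genes, so none of them was called.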
